A study of Homo sapiens with 12 samples.

Results

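The response of SK-LMS-1 cells to taurolidine was read from the 4 of 12 expression arrays that carried RNA of this line. SK-LMS-1 is an established human leiomyosarcoma line, that is, a line from a malignant tumour of smooth muscle. The study used 3 soft tissue sarcoma lines: SK-LMS-1, A-204 and the epithelioid sarcoma line VA-ES-BJ. Each line went through 4 conditions for 6 hours, with 1 array per condition. The conditions were untreated, TRAIL at 50 ng/ml, taurolidine at 250 µmol/l, and both agents together. The members were the 2 SK-LMS-1 arrays with taurolidine (alone, and with TRAIL), set against the 2 without it (untreated, and TRAIL alone), over 14816 genes; both other lines were contrasted in the same way. The 2 arrays of each arm therefore differed in TRAIL, no condition was repeated within a line, and the labels do not say if each array had its own culture; p-values here reflect how these arrays scatter, which may partly be technical variation.

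Taurolidine is a derivative of the amino acid taurine that was developed as an antimicrobial and also kills tumour cells. TRAIL is a ligand of the TNF family that binds death receptors on the cell surface and starts apoptosis through FADD and caspase 8. Cells under acute chemical stress commonly induce immediate-early transcription factors such as FOS, heat shock genes and feedback inhibitors, while transcripts with short half-lives are lost quickly when their synthesis stops.

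The expression of smooth muscle genes was checked first. CALD1, which encodes caldesmon, gave MAS5 signals of 29742 in untreated cells, 27960 with TRAIL, 31533 with taurolidine and 30146 with both. TAGLN, which encodes transgelin, gave 9763, 10220, 12369 and 11894 in the same order, whereas MYH11, the smooth muscle myosin heavy chain, gave 137, 119.7, 80.7 and 175 and DES, desmin, gave 127, 176, 187 and 144. The median of the whole table was 137. Caldesmon and transgelin were thus bright on all 4 arrays, and the signals of the mature muscle genes MYH11 and DES lay near the table median. Of 14 smooth muscle genes tested, CNN1, calponin, was the 1 called with taurolidine (661 and 732 without, 1566 and 1665 with; log2 change 1.20 ± 0.28, adjusted p = 0.036; 0.12 to 0.17 without 1 SK-LMS-1 array, with 0 of the list called), and LMOD1 and MYOCD did not pass the filter on dim genes. Among markers of other cell types, 0 of 1 skeletal muscle, 6 epithelial, 2 leukocyte, 3 endothelial and 1 erythroid gene tested were called. Of all genes tested, 5.35% were called higher and 9.59% lower in SK-LMS-1. Counts in lists this small, that of smooth muscle included, therefore say little. EPCAM stayed between 13.8 and 71.6 and CDH1 between 8.70 and 44.7 on the 4 arrays, and the summed signal of the 2 leukocyte genes was 186 and 210 without taurolidine and 234 and 271 with it. The 6 epithelial genes summed to 11625 and 10124 without taurolidine and 16416 and 15095 with it, most of it from the keratin gene KRT18 (11164 and 9599.6, then 15885 and 14467), and their part in the other results was not tested.

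All 12 arrays carried the same overall scale, with a trimmed mean of 999.84 to 999.88 and medians of 123.2 to 155.4. The poly-A control transcripts that are spiked into the RNA before labelling were brighter on taurolidine arrays, by 0.63 and 0.40 log2 units in the 2 SK-LMS-1 pairs and by 0.72 and 0.53 in A-204 and VA-ES-BJ. The 3' to 5' signal ratios of GAPDH and ACTB, a measure of RNA integrity, moved by 0.0047 and 0.0069 log2 units with taurolidine in SK-LMS-1. All changes are differences of log2(signal + 11.8), as means over the 2 matched pairs (taurolidine minus untreated; both agents minus TRAIL) with the standard error from a limma fit over all 12 arrays.

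In SK-LMS-1, 793 genes (5.35% of those tested) were higher with taurolidine and 1421 (9.59%) were lower at an adjusted p under 0.05, with 4575 at an unadjusted p under 0.05. Of the called genes, 195 were at least 2-fold higher and 526 at least 2-fold lower. Their median size was 0.78 log2 units. A call needs the 2 pairs to agree, so the agreement of called genes is no finding. Likewise, arms of called genes that do not overlap only describe their values, and no share over all genes was counted. Over all 14816 genes the changes in the 2 pairs correlated at 0.44, and 165 genes were at least 2-fold in opposite directions. The median change over all genes was 0.0275. At least 2-fold differences with TRAIL were counted for comparison. TRAIL against untreated cells had 486 genes higher and 752 lower, and both agents against taurolidine alone 580 and 446, over all genes with dim ones included. Among the 10918 genes whose SK-LMS-1 signals all exceeded the table median, 719 and 585 differed at least 2-fold in the 2 taurolidine pairs, against 101 between TRAIL and untreated cells and 34 between both agents and taurolidine alone.

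**Figure D1:**
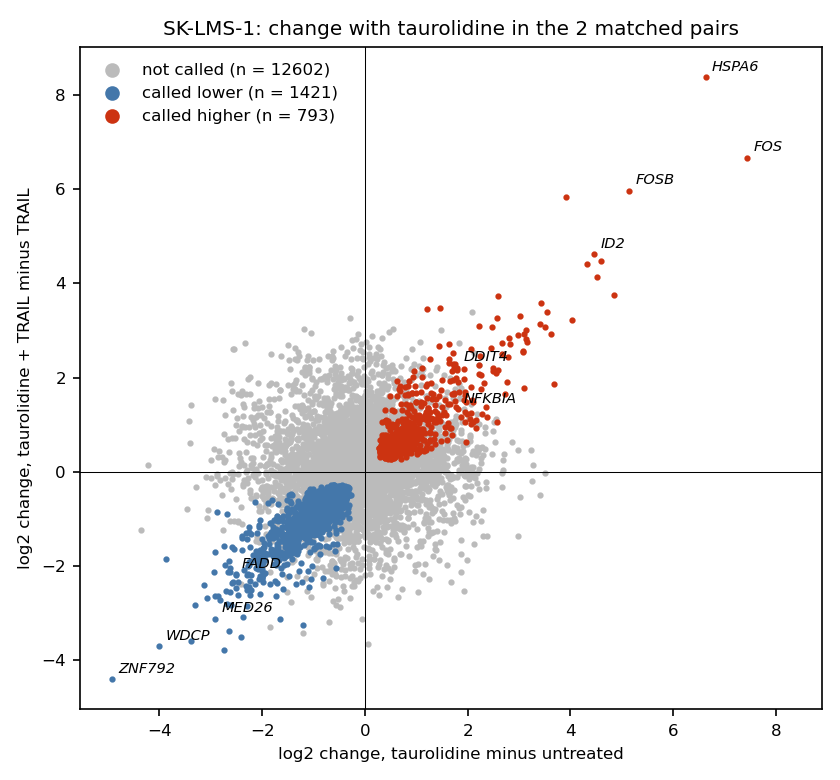
Log2 change with taurolidine in SK-LMS-1 cells without TRAIL (x axis) and with TRAIL (y axis), 1 point per gene for 14816 genes, with the 793 genes called higher in red and the 1421 called lower in blue. HSPA6 and FOS lie farthest up and to the right, ZNF792 farthest down and to the left, and the called genes lie in the 2 quadrants where both pairs agree in sign.

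These counts depended on single arrays and on the scale. Without the untreated array 218 genes were called higher and 500 lower, without the taurolidine array 146 and 559, without the TRAIL array 298 and 622, and without the array with both agents 165 and 667. The share of called genes that were higher was 35.8% on the deposited scale, 59.3% with equal array medians (1228 higher, 842 lower) and 2.57% when arrays were scaled to the poly-A spikes (142 higher, 5390 lower), which moved the median of all genes to 0.18 and -0.49. The largest changes were far outside these shifts. In a fit of the 4 SK-LMS-1 arrays alone, which leaves 1 residual degree of freedom, limma called 0 genes, with 3496 at an unadjusted p under 0.05.

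The largest rise was that of HSPA6, a stress-inducible member of the HSP70 chaperone family. Its signal was 205 in untreated cells, 55.0 with TRAIL, 21598 with taurolidine and 22206 with both agents. Both taurolidine arrays were far above both others, which lay on either side of the table median of 137, so the arms did not overlap. The mean log2 change was 7.51 ± 0.52 (adjusted p = 0.00083), with 6.64 in the pair without TRAIL and 8.38 in the pair with it. A second HSPA6 probe set gave 5.89.

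FOS, a subunit of the AP-1 transcription factor, gave 108 untreated, 201 with TRAIL, 20857 with taurolidine and 21662 with both, a log2 change of 7.06 ± 0.25 (adjusted p = 0.00015). FOSB, its close relative, gave 155, 83.2, 5891 and 5924 (5.55 ± 0.32, adjusted p = 0.00046). In both genes the 2 arrays with taurolidine were nearly equal and lay far above the 2 without. FOSB also changed by 3.05 in A-204 and by 6.16 in VA-ES-BJ. Its differences from those lines were not called (adjusted p = 0.070 and 0.67). ID2, an inhibitor of basic helix-loop-helix transcription factors, rose from 787 and 729.7 to 17684 and 18260, a log2 change of 4.55 ± 0.10 (adjusted p = 2e-05). ATF3, a stress-induced factor of the ATF family, rose from 249.5 and 259 to 6311 and 6016 (4.54 ± 0.22), and HES1, a repressor known as a target of Notch, from 186 on both arrays to 3948 and 4219.7 (4.37 ± 0.22). For these 3 genes TRAIL made little difference to either arm.

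RASD1, a Ras-related GTPase, rose by 4.88 ± 0.67 log2 units, HYMAI, an imprinted non-coding RNA, by 4.30 ± 0.69 and RRAD, another Ras-related GTPase, by 3.63 ± 0.71. Their signals without taurolidine lay between 24.0 and 149, where a single array weighs most. RNA45SN5, the 45S precursor of ribosomal RNA, rose from 231 and 305 to 5565 and 5514 (4.32 ± 0.29, adjusted p = 0.00075), and A-204 and VA-ES-BJ changed by 5.92 and 5.82. The differences of SK-LMS-1 from those lines were not called (adjusted p = 0.14 and 0.23).

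**Figure D2:**
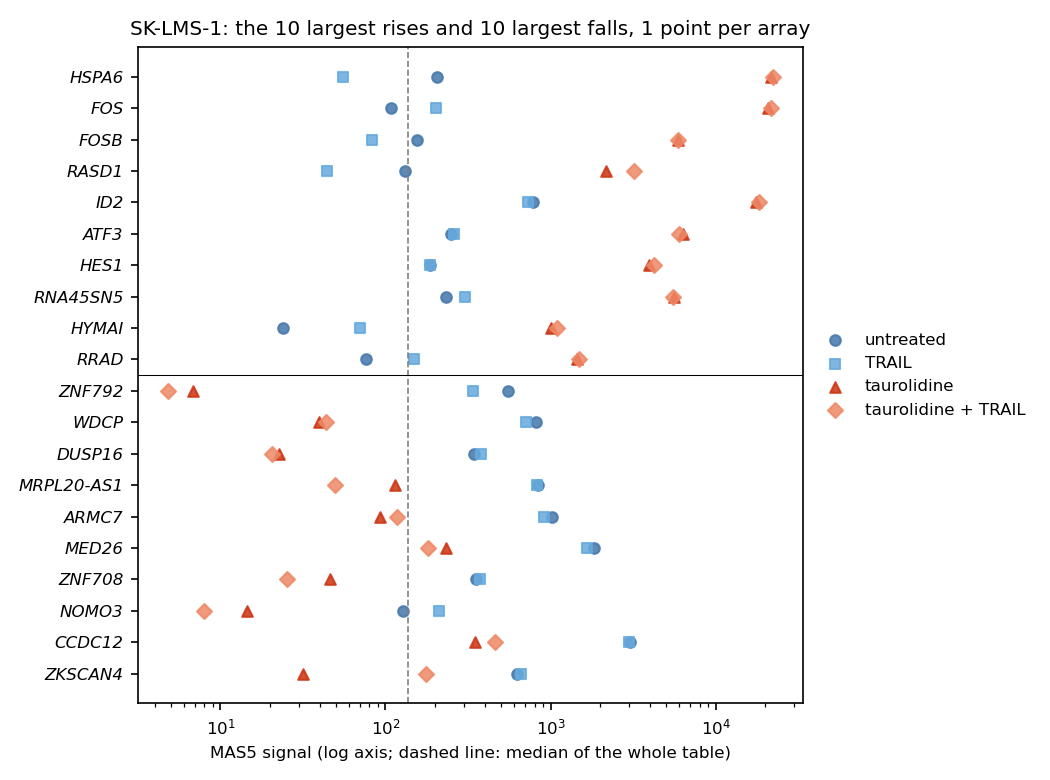
MAS5 signal on a log axis for the 10 largest rises and the 10 largest falls in SK-LMS-1, 1 point per array, with the table median as a dashed line. In each of the 20 genes the 2 taurolidine points lie apart from the 2 points without it, as for HSPA6 (205 and 55.0 against 21598 and 22206). The genes were chosen for large called changes with both pairs in the same direction, so this separation is no added finding.

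Among the 10 largest falls were several regulators of transcription. MED26, the Mediator subunit that recruits elongation factors, fell from 1842 and 1665 to 234 and 182 (log2 change -3.01 ± 0.27, adjusted p = 0.0017), and its second probe set gave -3.28. WDCP fell from 816 and 709 to 39.6 and 43.6 (-3.86 ± 0.39, adjusted p = 0.0025), and CCDC12 from 3016 and 2982 to 347 and 459 (-2.87 ± 0.16, adjusted p = 0.00041). The zinc finger genes ZNF792, ZNF708 and ZKSCAN4 changed by -4.66 ± 0.83, -3.01 ± 0.31 and -2.86 ± 0.57. In each of these genes both taurolidine arrays lay under both others. NOMO3 (-2.96 ± 0.45) and the non-coding MRPL20-AS1 (-3.26 ± 0.67) completed the group with DUSP16 and ARMC7, whose probe sets disagreed. DUSP16, a phosphatase of JNK and p38 kinases, had a change of -3.48 ± 0.10 on its brightest probe set but -0.88 and 0.48 on the others, and ARMC7 had -3.07 and 0.56. Of these 20 rises and falls, 14 kept their call in each fit without 1 SK-LMS-1 array. The exceptions were HYMAI (adjusted p 0.042 to 0.073), RRAD (0.064 to 0.11), ZNF792 (0.063 to 0.090), NOMO3 (0.035 to 0.061), MRPL20-AS1 (0.040 to 0.12) and ZKSCAN4 (0.0020 to 0.11).

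The promoters of 4 genes are shown because HSPA6 and FOS had the largest rises of all and the changes of DDIT4 and CXCL2 in SK-LMS-1 differed from those in both other lines. Each run holds the 250 bases before the first RefSeq transcript start in GRCh38.p14, 5' to 3' along the gene's strand. Capitals mark matches to the heat shock element core TTCNNGAA, the CRE half-site TGACGT, the NF-kB-like motif GGGNNTTTC and the TATA motif TATAAA, searched on both strands with overlaps allowed.
HSPA6 (chr1:161524290-161524539, plus strand): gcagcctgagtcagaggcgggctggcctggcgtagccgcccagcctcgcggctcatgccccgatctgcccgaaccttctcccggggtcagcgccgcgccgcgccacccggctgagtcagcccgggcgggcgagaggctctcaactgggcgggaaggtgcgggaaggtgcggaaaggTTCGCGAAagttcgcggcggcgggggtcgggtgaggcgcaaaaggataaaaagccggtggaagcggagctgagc
FOS (chr14:75278578-75278827, plus strand): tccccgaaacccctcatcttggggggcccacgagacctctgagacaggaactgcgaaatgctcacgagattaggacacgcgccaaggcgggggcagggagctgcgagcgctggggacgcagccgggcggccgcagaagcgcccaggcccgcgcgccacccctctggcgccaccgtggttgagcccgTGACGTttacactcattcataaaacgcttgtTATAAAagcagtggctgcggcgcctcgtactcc
DDIT4 (chr10:72273674-72273923, plus strand): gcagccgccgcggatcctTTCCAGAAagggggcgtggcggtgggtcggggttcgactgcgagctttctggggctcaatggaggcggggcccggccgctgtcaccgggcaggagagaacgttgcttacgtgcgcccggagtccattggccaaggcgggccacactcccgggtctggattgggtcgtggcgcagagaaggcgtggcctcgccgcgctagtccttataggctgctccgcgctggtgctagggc
CXCL2 (chr4:74099196-74099445, minus strand): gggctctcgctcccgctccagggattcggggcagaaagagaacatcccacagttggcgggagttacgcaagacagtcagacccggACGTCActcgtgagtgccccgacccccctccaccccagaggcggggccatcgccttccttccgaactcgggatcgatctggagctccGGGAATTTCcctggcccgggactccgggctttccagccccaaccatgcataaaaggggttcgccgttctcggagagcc

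The HSPA6 match lay 74 to 67 bases before the start and the DDIT4 match 232 to 225 bases before it, both to the heat shock element core, which 6.72% of 27305 promoters of this length hold. FOS carried the CRE half-site 64 to 59 bases and the TATA motif 33 to 28 bases before the start, present in 7.42% and 11.1% of promoters. CXCL2 carried the CRE half-site on the opposite strand at 165 to 160 bases and the NF-kB-like motif at 78 to 70 bases, the latter held by 4.12% of promoters. Of the 28 genes that stood apart from both other lines, 23 had a RefSeq promoter, and the CRE half-site was in 5 of these, the heat shock element core in 3, the TATA motif in 2 and the NF-kB-like motif in 1. A match describes the letters and does not show binding.

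How far the response was shared was measured by testing the difference between the taurolidine changes of the lines directly. The change in SK-LMS-1 differed from that in A-204 for 103 genes (0.695%), higher in 80 and lower in 23, and from that in VA-ES-BJ for 69 genes (0.466%), higher in 48 and lower in 21. Both differences were called with the same sign for 28 genes (0.189%), 23 higher and 5 lower in SK-LMS-1. Without the untreated, taurolidine, TRAIL or combined SK-LMS-1 array the 28 became 3, 2, 10 and 2 genes, and with a TRAIL term in each line, which blocks by TRAIL status, 1. ID2 and DDIT4 kept both called differences in all 4 fits without 1 array, and FOS kept each of its own in 1 of 4. The taurolidine contrasts within the 3 lines share no array, but they share 1 estimate of the spread. Both differences use the same 4 SK-LMS-1 arrays, so their common sign is not 2 independent results.

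Many of the genes called in SK-LMS-1 were called in the same direction elsewhere. Of the 1421 genes called lower, 1131 (79.6% of them and 43.1% of the A-204 falls) were also called lower in A-204 and 825 (58.1%, and 61.5% of the VA-ES-BJ falls) in VA-ES-BJ. Of the 793 called higher, 446 (56.2%, and 28.2% of the A-204 rises) were shared with A-204 and 239 (30.1%, and 39.4%) with VA-ES-BJ. Over all genes tested, A-204 had 17.7% called lower and 10.7% higher, and VA-ES-BJ 9.05% and 4.09%; whether rises and falls were shared to different degrees was not tested. In neither other line were 303 of the rises and 229 of the falls called in the same direction, and opposite calls count among these. A difference between lines was itself called for 28 of the 303 and 14 of the 229. Absence of a call in the same direction elsewhere was thus seldom matched by a called difference.

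DDIT4, an inhibitor of mTORC1 signalling also known as REDD1, moved in opposite directions. In SK-LMS-1 it gave 869 untreated, 932 with TRAIL, 3037 with taurolidine and 4370 with both, a log2 change of 2.0 ± 0.15 (adjusted p = 0.0010). In A-204 it fell from 6163 and 7982 to 2176 and 2444 (-1.60), and in VA-ES-BJ from 13234 and 16208 to 2374 and 2263 (-2.65). SK-LMS-1 was thus the lowest of the lines without the drug and the highest with it. The differences of 3.60 ± 0.21 and 4.66 ± 0.21 were called (adjusted p = 0.0031 and 0.0015) and stayed so without any 1 SK-LMS-1 array.

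ID2 likewise started lowest in SK-LMS-1. The 787 and 729.7 without taurolidine compare with 11225 and 12151 in A-204 and 20866 and 23546 in VA-ES-BJ, and the 17684 and 18260 with it with 28335 and 29660, and 23910 and 24635. Taurolidine brought SK-LMS-1 close to the level of the other lines without passing it. The differences in change, 3.24 ± 0.14 and 4.42 ± 0.14 (adjusted p = 0.00093 and 0.00024), were also called without any 1 SK-LMS-1 array.

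TRIB1, a pseudokinase that guides protein degradation, rose from 1479 and 1598 to 6982.5 and 6793 in SK-LMS-1 (log2 change 2.15 ± 0.12), fell in A-204 from 14051 and 15458 to 2286 and 2805 (-2.54) and was not called in VA-ES-BJ (0.16, adjusted p = 0.43). SOCS1, a feedback inhibitor of JAK kinases, rose from 351.2 and 454 to 2109 and 1972 (2.32 ± 0.22), was not called in A-204 (-0.14) and fell by 1.92 in VA-ES-BJ. Its relative SOCS3 rose from 736 and 984 to 2636 and 3208 (1.76 ± 0.17) with changes of -0.52 and -0.24 elsewhere, neither called. In all 3 genes the SK-LMS-1 arms did not overlap. FAM43A rose from 174 and 238 to 1958 and 2197 (3.28 ± 0.13), against a fall of A-204 (-0.58) and a smaller rise of VA-ES-BJ (1.57). PLK2, a polo-like kinase, rose from 5041 and 4718 to 12985 and 12590 (1.39 ± 0.15) and fell by 0.55 and 1.39 in the other lines.

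Other genes that stood apart rose elsewhere too, by less, or were not called higher there. ADM, which encodes the vasodilator peptide adrenomedullin, rose from 5251 and 5219.5 to 37008 and 37590 (log2 change 2.83 ± 0.12), against 1.33 and 0.70. SAT1, which acetylates polyamines, rose from 1820.0 and 1521 to 8686 and 8429.5 (2.35 ± 0.13), against 0.74 and 0.58. CITED2, a cofactor that binds CBP and p300, rose from 6552 and 6517 to 14670 and 15122 (1.19 ± 0.10). It changed by -0.05 in A-204 and by -0.44 in VA-ES-BJ, where it was called lower (adjusted p = 0.039). ADM, SAT1 and CITED2 each had nearly equal values within an arm. The FOS differences were 3.31 (adjusted p = 0.024) and 2.96 (0.035), and those of HSPA6 4.93 (0.051, not called) and 5.46 (0.045). Without 1 SK-LMS-1 array the HSPA6 difference from VA-ES-BJ had adjusted p-values of 0.056 to 0.15.

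**Figure D3:**
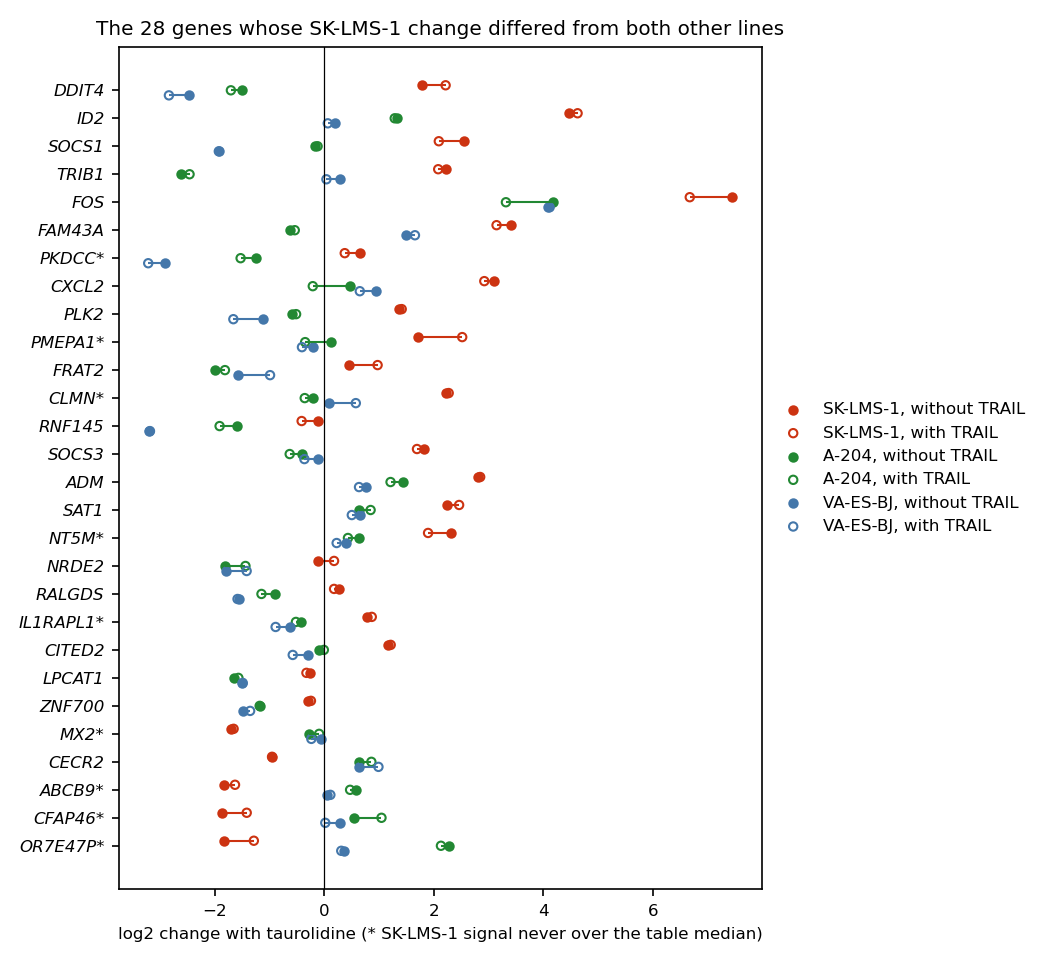
Log2 change with taurolidine for the 28 genes whose SK-LMS-1 change differed from both other lines, with filled points for the pair without TRAIL and open points for the pair with it, in red for SK-LMS-1, green for A-204 and blue for VA-ES-BJ. DDIT4 is on the right of zero in SK-LMS-1 (2.0) and on the left in both others (-1.60 and -2.65); asterisks mark the 9 genes whose SK-LMS-1 signal never passed the table median.

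Of the 23 genes that stood apart on the higher side, 17 were called higher in SK-LMS-1. The other 6 were not called there and were called lower in both other lines: PKDCC, RNF145, NRDE2, RALGDS, LPCAT1 and ZNF700. RNF145, for example, gave 13720 and 15759 without taurolidine and 12653 and 11842 with it (-0.26, adjusted p = 0.22), against falls in A-204 (-1.75) and VA-ES-BJ (-3.19). In 15 of the 23 genes (65.2%) the signal without taurolidine was lowest in SK-LMS-1, which held for 34.3% of all genes tested, and it was highest there in 0. This level and the change use the same arrays and are not independent. The 5 genes on the lower side were OR7E47P (-1.56, against 2.21 and 0.34), CFAP46 (-1.64, 0.79 and 0.15), ABCB9 (-1.73, 0.53 and 0.08), MX2 (-1.68, -0.18 and -0.15) and CECR2 (-0.95, 0.75 and 0.81). All but CECR2 had SK-LMS-1 signals under the table median on all 4 arrays, and a second CECR2 probe set gave 0.99 in SK-LMS-1.

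Calls of opposite direction were few. Against A-204, 24 genes were called higher in SK-LMS-1 and lower there, 18 of them with a called difference, and 11 were called the other way, 7 with a called difference. Against VA-ES-BJ the counts were 14 (12) and 6 (4). Besides the genes above, HBM, a haemoglobin gene, gave 9.58 and 39.2 without and 172 and 163 with taurolidine in SK-LMS-1 (2.44) and -2.23 in A-204, but the difference was not called (adjusted p = 0.07). MAML3, a Notch coactivator, fell by 2.11 in SK-LMS-1 and rose by 1.52 in VA-ES-BJ. Its VA-ES-BJ signals all lay under the table median (29.0 and 3.67 without taurolidine, 60.9 and 59.3 with it). The second MAML3 probe set gave 0.60 in SK-LMS-1.

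A stricter view took genes that changed at least 2-fold in both SK-LMS-1 pairs and by less than 0.5 log2 units in all 4 pairs of the other lines. It held 15 genes higher and 3 lower, of which 17 were called in SK-LMS-1, 3 had a called difference and 2 had a signal over 1000. Those 2 were DUSP1, a MAP kinase phosphatase, which rose from 11478 and 10611 to 26792 and 27345 (1.29 ± 0.23), and TAF15, an RNA-binding protein, which rose from 418 and 540.0 to 1039.6 and 1199 (1.21). For neither was a difference between lines called (DUSP1 adjusted p = 0.13 and 0.22). The same rule gave 13 higher and 40 lower genes in A-204 and 4 and 10 in VA-ES-BJ.

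Immediate-early and AP-1 genes were the list with the largest median, 1.32 against 0.0275 for all genes, and 15 of 25 tested rose while 2 fell. Of all genes, 5.35% were called higher in SK-LMS-1 and 9.59% lower. In A-204 and VA-ES-BJ the medians were 1.22 and 0.69, with 15 and 13 genes higher. Besides FOS, FOSB, ATF3 and HES1, NR4A2, an orphan nuclear receptor, rose from 114 and 140.0 to 1416 and 1264 (3.29 ± 0.16), EGR3 from 79.6 and 113 to 804 and 835 (2.96 ± 0.16), JUNB from 769 and 1132 to 6565 and 6619 (2.81 ± 0.19) and KLF4 from 1584 and 1275 to 12941 and 12686 (3.16 ± 0.18). None of these genes overlapped between arms. NR4A3, a relative of NR4A2, fell from 179 and 170 to 18.1 and 14.2 (-2.74 ± 0.66, adjusted p = 0.038), and FOSL2 fell by 0.53. KLF4 differed from A-204 (adjusted p = 0.020) and JUNB from VA-ES-BJ (0.041). KLF10 was not called in SK-LMS-1 (-0.14) and differed from VA-ES-BJ, where it rose by 1.53 (adjusted p of the difference = 0.029). Without 1 SK-LMS-1 array, 12 to 13 of the list were called higher and 0 lower.

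Genes of the NF-kB pathway were split (over all genes, 5.35% rose and 9.59% fell in SK-LMS-1). Of 22 tested, 7 rose and 3 fell in SK-LMS-1, with a median of 0.21 (-0.31 on the poly-A spike scale), against medians of -0.14 in A-204 (4 higher, 5 lower) and -0.15 in VA-ES-BJ (1 higher, 5 lower). The chemokine CXCL2 rose from 457 and 488 to 3996 and 3775 (log2 change 3.01 ± 0.18, adjusted p = 0.00061) and differed from both lines, whose changes were 0.13 and 0.80. CXCL3 rose from 513 and 599.9 to 4612 and 4331 (2.98 ± 0.29), and IL6 from 139.5 and 119.9 to 493 and 403 (1.70 ± 0.21). CXCL3 changed by 1.21 (A-204) and 0.29 (VA-ES-BJ), and IL6 by 1.75 and 0.56 in the same order. Differences of SK-LMS-1 from these lines were not called for CXCL3 (adjusted p = 0.11 and 0.062) or IL6 (0.95 and 0.20). The SK-LMS-1 arms did not overlap for any of these chemokine and cytokine genes.

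NFKBIA, the inhibitor that holds NF-kB in the cytoplasm, rose from 2401 and 3143 to 8412 and 7942 (1.57 ± 0.22, adjusted p = 0.0068), with 0.03 for A-204 and -1.62 for VA-ES-BJ; the latter difference was called (adjusted p = 0.017). Without the untreated or the taurolidine array the NFKBIA rise had an adjusted p of 0.054 and 0.055. NFKBIZ, a nuclear relative, rose by 1.22 ± 0.11 and fell by 0.82 in VA-ES-BJ (adjusted p of the difference = 0.0072). ICAM1, an adhesion molecule, rose by 1.47 ± 0.29 and fell by 1.89 in A-204 (0.030), and IRF1, an interferon regulatory factor, rose by 0.62 ± 0.10 and fell by 1.56 in A-204 (0.0049). The falls were those of NFKB1 (-0.84), REL (-0.74), both subunits of NF-kB, and TNFAIP3 (-0.92), a feedback inhibitor. Without 1 SK-LMS-1 array, 4 to 5 genes of the list were higher and 2 to 3 lower.

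**Figure D4:**
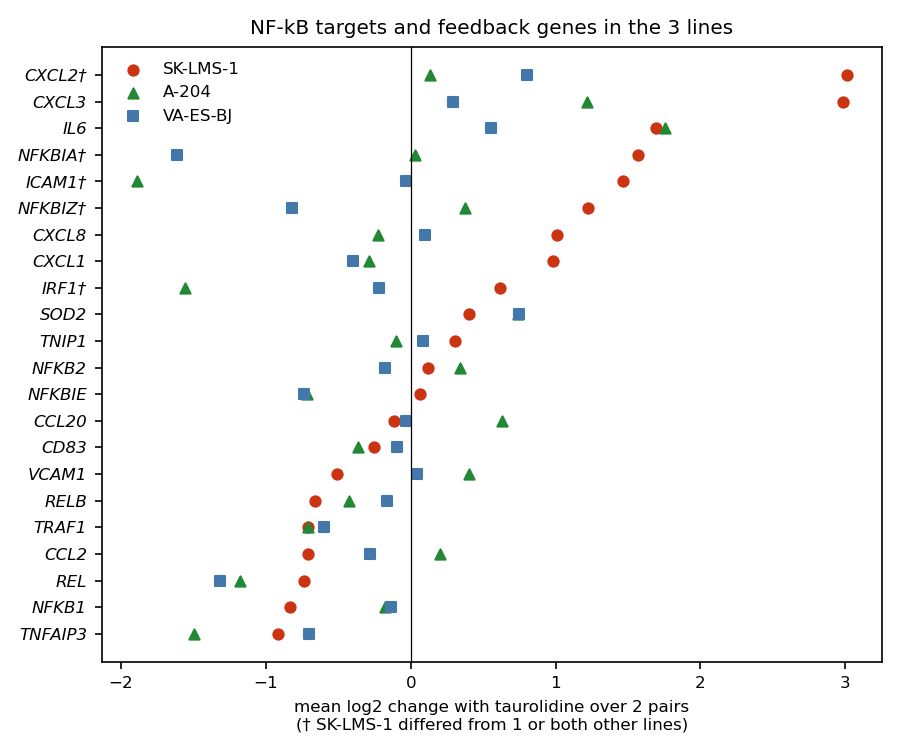
Mean log2 change with taurolidine over the 2 pairs for 22 NF-kB targets and feedback genes in the 3 lines. CXCL2 (3.01) and CXCL3 (2.98) stand farthest right in SK-LMS-1, the subunits NFKB1 and REL lie left of zero, and daggers mark the 5 genes whose SK-LMS-1 change differed from 1 or both other lines.

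FADD and CASP8 fell among the genes of TRAIL signalling, and the TRAIL receptors were not called. Of 21 genes of the extrinsic apoptosis list, 0 rose and 6 fell, against 5.35% and 9.59% of all genes (median -0.15, or 0.0098 with equal array medians). The counts were 0 to 1 higher and 2 to 3 lower without 1 SK-LMS-1 array, 2 and 2 with the mean of probe sets, 1 and 4 with equal array medians and 0 and 11 with poly-A spike scaling. A-204 had 4 higher and 7 lower, and VA-ES-BJ 0 and 5. FADD, the adaptor of the death receptors, fell from 5619.6 and 5383 to 974 and 1195 (-2.34 ± 0.16, adjusted p = 0.00073), as it did in A-204 (-2.61) and VA-ES-BJ (-1.99). CASP8, the initiator caspase, fell from 451 and 465 to 167 and 228 (-1.18 ± 0.19, adjusted p = 0.012), but had adjusted p-values of 0.064 to 0.066 without the untreated, taurolidine or TRAIL array. In both genes the arms were apart.

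The death receptor TNFRSF10A gave 126, 171, 127 and 309 (0.41 ± 0.34, adjusted p = 0.47) and TNFRSF10B gave 5641, 5503, 5231 and 5494 (-0.06 ± 0.12, adjusted p = 0.80) in untreated, TRAIL, taurolidine and combined order. Neither receptor was called, and the TNFRSF10A arms overlapped. TNFSF10, which encodes TRAIL itself, stayed between 23.4 and 74.6, CFLAR, the inhibitor of caspase 8, had a change of -0.16 (adjusted p = 0.53) and BID, which links caspase 8 to mitochondria, 0.20 (0.29). The 12 other CFLAR probe sets gave -1.01 to -0.03 in SK-LMS-1, and the 3 other TNFRSF10B probe sets -0.63 to 0.44. XIAP, an inhibitor of caspases, fell by 0.53 (0.038), with probe sets from -0.94 to 0.43 and adjusted p-values of 0.098 to 0.18 without 1 SK-LMS-1 array. In the BCL2 family 1 of 17 rose and 1 fell, against 5.35% and 9.59% of all genes. PMAIP1, the BH3-only gene also called NOXA, rose from 9648 and 9963 to 22625 and 22540 (1.20 ± 0.09, adjusted p = 0.0011), with 1.20 for A-204 and 1.09 for VA-ES-BJ. MCL1, the survival protein that NOXA binds, fell from 10402 and 11929 to 5118 and 5178 (-1.11 ± 0.11, adjusted p = 0.0024), against -0.13 in A-204 (adjusted p of the difference = 0.057) and -0.55 in VA-ES-BJ. The 5 other MCL1 probe sets gave -1.62 to -0.52 in SK-LMS-1, -0.75 to 0.15 in A-204 and -1.76 to 0.30 in VA-ES-BJ. BCL2L1 gave 3651, 3638, 3475 and 3504 and was not called.

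Stress genes rose and fell within the same lists, against 5.35% higher and 9.59% lower among all genes. Of 26 genes of the integrated stress response, 12 rose and 4 fell (median 0.31; -0.21 on the poly-A spike scale), and 5 rose and 1 to 2 fell without 1 SK-LMS-1 array. GADD45B rose by 2.78 ± 0.26, GADD45A by 1.96 ± 0.14, PPP1R15A, which restores translation, by 1.68 ± 0.16 and ATF4, the central factor, by 0.90 ± 0.12. DDIT3, which encodes CHOP, gave 1055, 742, 809.7 and 871 and was not called (-0.07, adjusted p = 0.85), and TRIB3 fell by 0.74. CEBPB rose by 0.70 and fell by 0.72 in A-204 (adjusted p of the difference = 0.025). Besides HSPA6, the co-chaperone DNAJB1 was the other 1 of 17 heat shock genes to rise (9405 and 9321 to 17271 and 16534; 0.85 ± 0.11), and 0 fell. Of 19 endoplasmic reticulum genes 2 rose and 2 fell, against 5.35% and 9.59% of all genes, and without 1 SK-LMS-1 array 1 to 2 rose and 0 fell. ERN1, the stress sensor IRE1, was among the rises at 2.77 ± 0.17, but its other probe sets gave -0.57 and -0.16. Of 22 NRF2 and glutathione genes 0 rose and 1 fell, and of 10 metallothionein and zinc genes 0 were called.

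Feedback inhibitors of growth signals were also split, where 5.35% of all genes rose and 9.59% fell. Of 19 MAP kinase phosphatases and feedback genes, 4 rose and 7 fell (2 and 3 without any 1 SK-LMS-1 array). DUSP6, a phosphatase of ERK, rose from 3076 and 3145 to 8702 and 8252 (1.44 ± 0.13) and differed from A-204 (-0.21, adjusted p = 0.025), IER3 rose by 1.79 ± 0.18, and DUSP10 and SPRY2 fell by 1.41 and 1.03. DUSP10 had adjusted p-values of 0.069 to 0.11 without 1 SK-LMS-1 array. Among 20 genes regulated by TGF-beta through SMAD factors, 4 were called higher and 5 lower, or 3 to 4 and 3 without 1 SK-LMS-1 array. ID4 rose with ID2, by 2.34 ± 0.30, and its 3 other probe sets gave 0.36 to 1.46. SMAD7, the inhibitory SMAD, by contrast fell from 926 and 808 to 222 and 179 (-2.05 ± 0.19) and SKIL by 1.54. ID1 was not called (0.10). In the list of 21 hypoxia and glycolysis genes 5 rose (2 to 3 without 1 SK-LMS-1 array) and 0 fell, led by ADM and by PFKFB4, a regulator of glycolysis (557 and 807 to 2211 and 2282; 1.73 ± 0.26, with adjusted p-values of 0.033 to 0.063 without 1 SK-LMS-1 array), while VEGFA, the vascular growth factor, gave 7115, 5966, 6927 and 7520.5 and was not called.

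Among genes of transcription more members fell than rose, as among all genes (9.59% against 5.35%). Of 60 KRAB zinc finger genes, which encode repressors, 28 fell and 0 rose, with a median of -0.71, against 43 and 35 falls and medians of -1.0 and -0.86 in A-204 and VA-ES-BJ. ZNF92 fell from 2092 and 1940.4 to 285 and 283 (-2.78 ± 0.10, adjusted p = 0.00015) and ZNF680 from 1334 and 1385 to 166 and 213 (-2.78 ± 0.30). Of 30 Mediator and elongation genes 11 fell and 1 rose (median -0.33), with MED7 at -1.55 ± 0.13 and CCNT1, the cyclin of P-TEFb, at -1.15 ± 0.09. On their other probe sets MED7 gave -1.50 and -0.19, and CCNT1 gave -0.03. No member of either list differed from another line by a called difference. Over all genes 0.695% differed from A-204 and 0.466% from VA-ES-BJ, so few or none would be called at that share. The falls dropped to 11 to 19 KRAB genes and 5 to 6 Mediator genes without 1 SK-LMS-1 array.

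Cell cycle genes moved in both directions, beside 5.35% of all genes higher and 9.59% lower. Of 27 mitosis genes 6 fell and 0 rose (median -0.18), led by CCNA2, cyclin A2, which fell from 9372 and 9839 to 4749.5 and 4843 (-1.0 ± 0.10, adjusted p = 0.0024) and differed from A-204 (-0.03, adjusted p of the difference = 0.046). Without 1 SK-LMS-1 array 1 mitosis gene was called. Among 19 G1 cyclins and CDK inhibitors 3 rose and 4 fell. CDKN1C, the inhibitor p57, rose from 246 and 293 to 2168 and 1801 (2.83 ± 0.26) and differed from VA-ES-BJ (0.08, adjusted p of the difference = 0.045), and CCNE2, cyclin E2, fell by 0.94 ± 0.09. CDKN1A, p21, rose by 0.93 ± 0.21, with adjusted p-values of 0.10 to 0.16 without 1 SK-LMS-1 array. In those fits 1 gene of the list was higher and 2 to 4 were lower. Of 26 replication genes 1 rose and 1 fell, and 0 were called without 1 SK-LMS-1 array.

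Lists of abundant housekeeping genes and of the matrix ranged from 0 calls to shares above the 5.35% higher and 9.59% lower of all genes. Oxidative phosphorylation had 7 of 24 higher and 0 lower (median 0.39; -0.13 on the poly-A spike scale), and 0 were called without any 1 SK-LMS-1 array. Of 25 proteasome and 15 ribosomal protein genes 0 were called, with medians of 0.24 and 0.25. Replication-dependent histone genes had 5 of 14 higher (median 0.71), such as H3C2, which rose from 98.1 and 60.4 to 351.4 and 342. Without 1 SK-LMS-1 array 1 to 3 histone genes were higher, and H3C2 had adjusted p-values of 0.047 to 0.077. Of 28 matrix and integrin genes 5 fell and 1 rose, among them COL3A1, a fibrillar collagen, from 2170.5 and 2037 to 789.5 and 871 (-1.33 ± 0.21). Of the matrix genes 0 to 2 fell and 0 rose without 1 SK-LMS-1 array, and COL3A1 had adjusted p-values of 0.037 to 0.071. In the p53 target list 6 of 19 rose and 3 fell, including PLK3 (1.80) and PPM1D, the phosphatase that turns p53 off (-1.71), and 4 to 5 rose and 1 fell without 1 SK-LMS-1 array. EDN1, endothelin 1, rose by 2.55 ± 0.26 and HBEGF by 1.30 ± 0.26 among 17 ligands, where FGF2 fell by 0.84. HBEGF had adjusted p-values of 0.077 to 0.13 and FGF2 of 0.043 to 0.068 without 1 SK-LMS-1 array. Of 19 SRF and YAP targets 1 rose and 2 fell, of 11 cholesterol synthesis genes 1 and 2, and of 18 interferon-stimulated genes 1 rose and 0 fell. These counts were not tested against the 5.35% and 9.59% of all genes. In total 0 to 1, 1 to 2 and 0 to 1 genes of these lists were called without 1 SK-LMS-1 array.

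**Figure D5:**
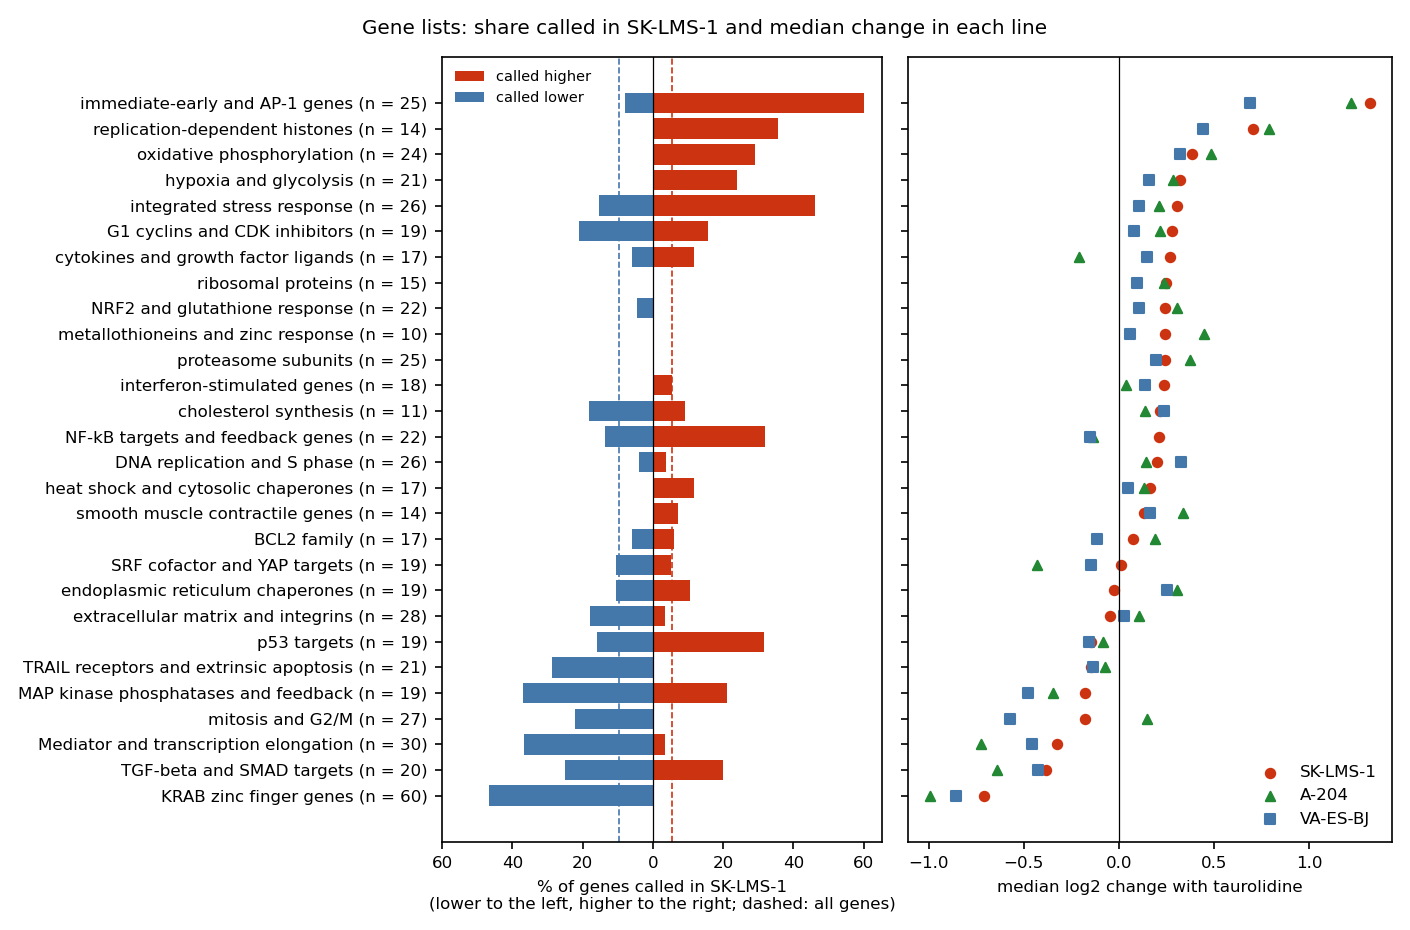
Left, the percentage of genes of each list called higher (red, to the right) or lower (blue, to the left) in SK-LMS-1, with dashed lines at the 5.35% and 9.59% of all genes; right, the median log2 change of each list in the 3 lines. Immediate-early genes are at the top (15 of 25 higher) and KRAB zinc finger genes at the bottom (28 of 60 lower), with the 3 lines on the same side of zero in both.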

How the data were processed

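Labelled RNA of 12 samples was hybridised to Affymetrix 3' expression arrays. The deposited values are linear signal intensities that the authors computed with MAS5, per the submitters' processing notes; each array had the same trimmed mean, so they had been scaled globally. From these intensities log2(signal + 11.8) was taken, the constant being the 10th percentile of all deposited values. Of 54675 probe sets, 41097 named 1 gene, 1801 several and 11777 none. Probe sets over the table median (137) on at least 2 of 12 arrays were kept, since an arm holds 2 arrays, and the brightest stood for its gene. limma 3.58.1 in R 4.3.3 fitted line by taurolidine with a common TRAIL term (5 residual degrees of freedom, spread shared by the 3 lines), with Benjamini-Hochberg adjustment at 0.05 over 14816 genes; every adjusted p in the text is limma's. The script was tested on simulated data.

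Named were the 10 largest rises and falls, the 8 largest differences from both lines in each direction, up to 5 opposite calls per line, up to 4 members per list by size of change and a set of TRAIL pathway genes. Others (JUNB, KLF4, KLF10, FOSL2, NFKBIZ, ICAM1, IRF1, SOCS3, SAT1, CITED2, DUSP1, TAF15, RNF145 and further members of the groups described) were chosen after their values were seen. The members and gene lists were chosen with earlier results of these data known. Promoters come from RefSeq. Alternatives covered the constant, the filter, scaling, probe sets, the TRAIL term, the error model and the arrays in the fit.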

Additional observations from a re-analysis of the deposited data

Results flagged for a closer look

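The taurolidine change of several genes differed between lines by a test of the difference. Against the mean of A-204 and VA-ES-BJ, the SK-LMS-1 log2 change was higher by 4.129 for DDIT4, 3.825 for ID2, 3.351 for SOCS1, 3.341 for TRIB1 and 3.136 for FOS. It was higher by 2.783 for FAM43A, 2.743 for PKDCC, 2.541 for CXCL2, 2.359 for PLK2, 2.327 for PMEPA1 and 1.816 for ADM. On the lower side the same difference was -2.827 for OR7E47P, -2.108 for CFAP46, -2.032 for ABCB9, -1.736 for CECR2 and -1.513 for MX2. PKDCC, PMEPA1, OR7E47P, CFAP46, ABCB9 and MX2 were dim in SK-LMS-1, with no signal over the table median. The other CECR2 probe set changed by 0.99 for SK-LMS-1, 0.76 for A-204 and -1.45 for VA-ES-BJ, so its difference had the opposite sign.

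For other genes the difference was called against 1 line. Against VA-ES-BJ it was 5.46 for HSPA6, 3.185 for NFKBIA, 2.746 for CDKN1C, 2.129 for ERN1, -0.9578 for CCNE2, -1.761 for DUSP16 and -3.628 for MAML3. Against A-204 it was 2.605 for HES1, 1.654 for DUSP6 and -0.9676 for CCNA2. On both other DUSP16 probe sets the sign turned, with SK-LMS-1 changes of 0.48 and -0.88 against -1.37 and -1.92 for VA-ES-BJ. The sign also turned on both other ERN1 probe sets (-0.57 and -0.16 against 0.27 and 0.02). For MAML3 the other probe set gave 0.60 against 0.94, a smaller difference. Differences on these other probe sets were not tested.

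The poly-A control transcripts, which the comparisons of genes do not use, were brighter with taurolidine in SK-LMS-1 by a mean of 0.516 log2 units. Their part in the calls was not tested beyond the scaling to them.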

How the results depend on the processing

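Each condition had 1 array per line, so the number of arrays limits the precision, and genes under the table median carry the least. Leaving out 1 SK-LMS-1 array gave 146 to 298 genes higher, 500 to 667 lower, 7 to 35 differing from A-204, 2 to 32 from VA-ES-BJ and 2 to 10 from both, against 793, 1421, 103, 69 and 28. Of 103 named genes called, 55 kept their call in all 4 such fits and 29 in none. A replicate block by TRAIL status (a TRAIL term in each line) gave 247 higher, 842 lower and 4, 1 and 1 differing. The labels give each condition a single array per line, so this block pairs arrays by TRAIL status only.

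A constant of 50 gave 181 genes differing from A-204. Without the filter 360 were higher, and 40, 22 and 5 differed. Equal array medians gave 1228 higher, 842 lower and 17 apart from both; poly-A spike scaling gave 142 higher, 5390 lower and 33 differing from VA-ES-BJ. The mean of a gene's probe sets left 56, 17 and 11 differing. No TRAIL term gave 242 differing from A-204. Robust errors with a trend gave 1396 higher and 606, 242 and 98 differing. The SK-LMS-1 arrays alone gave 0 higher and 0 lower by limma (3496 at an unadjusted p under 0.05). Without A-204 309 were higher and 1 differed from VA-ES-BJ; without VA-ES-BJ 354 were higher, 936 lower and 4 differed from A-204. The cause was not tested.

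Signs turned for MAML3 (0.60, filter at 3 arrays), LSS (-0.12), MCM5 (-0.048) and NDUFA2 (-0.032) with poly-A spike scaling, and CECR2 (0.019) and THBS1 (0.056) with the mean of probe sets.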
